A study of Mus musculus with 11 samples.

Results

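The genes described here are 10 that together mark T lymphocytes: Cd3d, Cd3e and Cd3g of the T cell receptor complex, the co-receptor genes Cd4, Cd8a and Cd8b1, the kinase genes Lck and Zap70, and the transcription factor genes Tcf7 and Bcl11b. They were taken by symbol from the merged count table, where all 10 were found among 22600 genes, and all 10 passed the filter on low counts that left 16496 genes for testing. RNA was taken from whole distal tibiae of 4 Control mice (genotype BMAd-WT in the labels) and 7 mice of the BMAd-DTA genotype, and each mouse gave 1 library. All mice were 24 weeks old per the labels, on a mixed C57BL6/SJL strain background and fed ad libitum. According to the study's methods every mouse, controls included, carried Osterix-FLPo and the FLPo-dependent Adipoq-Cre (FAC), and BMAd-DTA mice also carried diphtheria toxin A at Rosa26 behind a stop cassette that Cre removes, so that the toxin is made where both drivers have been active, chiefly in marrow adipocytes. The study notes 2 limits of the model, namely that some adipocytes of the distal tibia remain and that a small subset of stromal adipogenic precursors is also reached.

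A T cell recognizes a peptide held by an MHC molecule through a receptor whose 2 variable chains have almost no cytoplasmic tail. The signal passes through the CD3 delta, epsilon and gamma chains and the zeta chain. Lck, held by the tails of CD4 and CD8, phosphorylates these chains, and Zap70 docks there and carries the signal on. Tcf7 and Bcl11b encode factors that set and keep T cell identity from the thymus onward. Adult mouse marrow makes the precursors that seed the thymus, and it also holds mature T cells, many of them memory cells, as a small share of its leukocytes. Several of these genes are not confined to T cells, since NK cells carry Lck and Zap70, some dendritic cells carry CD4, and CD8 alpha is made without CD8 beta by a subset of dendritic cells.

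Library totals ran from 16969529 to 18637663 counts, and no 2 libraries of a group were alike within sampling noise, since the smallest chi-square per gene was 16.7 where sampling noise alone gives about 1. All 11 libraries held Xist RNA (13810 to 20260 counts) and 0 or 1 count in all over 4 Y-linked genes, while the legends of the study describe male mice for this experiment and the labels give no sex. Skeletal muscle content differed widely between libraries. The summed level of 12 muscle genes ran from 27.9 to 1318 CPM (counts per 1000000 counts on TMM-scaled library sizes) in Control and from 32.2 to 1046 CPM in BMAd-DTA, and was highest in Control replicate 3 and BMAd-DTA replicate 6. Whole bone RNA cannot tell a change in T cell number from a change in T cell RNA per cell or in the mix of other cells.

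The 3 CD3 genes lie together on chromosome 9 of GRCm38, at 44969572 to 44980431 for Cd3g on the minus strand, 44981786 to 44987339 for Cd3d on the plus strand and 44998740 to 45009627 for Cd3e on the minus strand. Cd3g and Cd3d are read away from each other from starts 1355 bases apart. Their promoters are shown because these 3 genes encode chains of the signalling complex. A relation between these sequences and the levels of the genes was not tested. Each run covers 250 bases before to 50 bases after the RefSeq start (GRCm38.p6), 5′ to 3′ on the gene's own strand, with capitals for matches to any of 5 short motifs on either strand. For TCF/LEF factors, the family of Tcf7, the letters searched were CTTTGA. For RUNX factors they were TGTGGT. For the GATA family, which includes Gata3 of T cells, they were AGATAA. For ETS factors they were AGGAAG. For the E-box, bound by E proteins, they were CAGNTG.
Cd3g, chr9:44980382-44980681, minus strand: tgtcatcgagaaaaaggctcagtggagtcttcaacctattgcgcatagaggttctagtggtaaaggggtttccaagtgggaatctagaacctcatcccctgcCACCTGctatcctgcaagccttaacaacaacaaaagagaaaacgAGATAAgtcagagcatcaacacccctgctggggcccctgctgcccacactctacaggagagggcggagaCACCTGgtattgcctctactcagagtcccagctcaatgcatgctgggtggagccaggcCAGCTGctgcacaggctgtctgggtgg
Cd3d, chr9:44981536-44981835, plus strand: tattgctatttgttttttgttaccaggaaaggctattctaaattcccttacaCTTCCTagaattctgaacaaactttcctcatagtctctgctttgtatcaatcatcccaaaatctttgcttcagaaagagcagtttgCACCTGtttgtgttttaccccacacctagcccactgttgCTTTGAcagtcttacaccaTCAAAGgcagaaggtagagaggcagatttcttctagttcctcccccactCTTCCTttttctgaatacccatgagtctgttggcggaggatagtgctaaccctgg
Cd3e, chr9:45009562-45009861, minus strand: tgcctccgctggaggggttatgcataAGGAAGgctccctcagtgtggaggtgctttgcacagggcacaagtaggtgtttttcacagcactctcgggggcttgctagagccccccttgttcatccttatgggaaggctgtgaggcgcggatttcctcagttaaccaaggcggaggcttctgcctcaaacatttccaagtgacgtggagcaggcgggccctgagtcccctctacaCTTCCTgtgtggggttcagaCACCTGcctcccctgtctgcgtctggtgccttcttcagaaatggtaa

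The Cd3d window held 2 TCF/LEF, 2 ETS and 1 E-box match, the Cd3e window 2 ETS and 1 E-box match, and the Cd3g window 1 GATA and 3 E-box matches. Over the 8 members with a promoter entry, 7 had an E-box match, 5 an ETS match, 3 a TCF/LEF match, and 1 each a RUNX and a GATA match. Of all 32851 mouse promoter windows of the same length, 51.4% held the E-box letters, 35.4% the ETS letters, 16.0% the TCF/LEF letters, 16.8% the RUNX letters and 11.2% the GATA letters. No 2 matches overlapped in these 3 windows, and a match describes the sequence only. Where a gene had several entries (Lck, Zap70 and Tcf7), the one nearest the GENCODE start was searched.

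To ask how T cell transcripts differed where marrow adipocytes had been targeted, all 10 genes were compared between the genotypes. All 10 had a higher fitted level in BMAd-DTA mice, where 50.4% of all tested genes did, and their median log2 fold change was 0.43 beside 0.0018 over all tested genes. The quasi-likelihood test of edgeR, with p adjusted by Benjamini-Hochberg for 16496 genes (edgeR adjusted p below), put no member under 0.05, and 0.0727% of all tested genes passed in this direction. Before adjustment 6 members had a p under 0.05 in this direction (Cd3d, Cd3e, Cd4, Cd8b1, Lck and Tcf7), as did 7.89% of all tested genes. The 10 members were chosen with earlier results of these data known, and they varied together between mice (median pairwise r 0.57). Setting these shares side by side is therefore no test. The count of 6 depended on single mice: it was 2 without Control replicate 1, 2 without Control replicate 4 and 3 without BMAd-DTA replicate 3. The groups overlapped for every member. Every BMAd-DTA library lay above every Control library for only 1.78% of tested genes, so overlap in all 10 members does not set them apart. DESeq2, the tool of the study's methods, called 1 member higher, Tcf7 (log2 fold change 0.64, adjusted p = 0.0261 in DESeq2), beside 2.78% of the genes to which it gave an adjusted p. Mean counts per library ran from 108 for Cd3d to 1087 for Cd4, so counting error alone amounts to 9.61% and 3.03% of the level, while the fitted variation between mice ran from 14.0% for Lck to 39.5% for Cd8b1. The study's flow cytometry went the other way, with fewer T cells and fewer nucleated cells in long-bone marrow of BMAd-DTA mice. Those are counts of marrow cells, whereas CPM is a share of the RNA of a whole distal tibia.

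**Figure D1:**
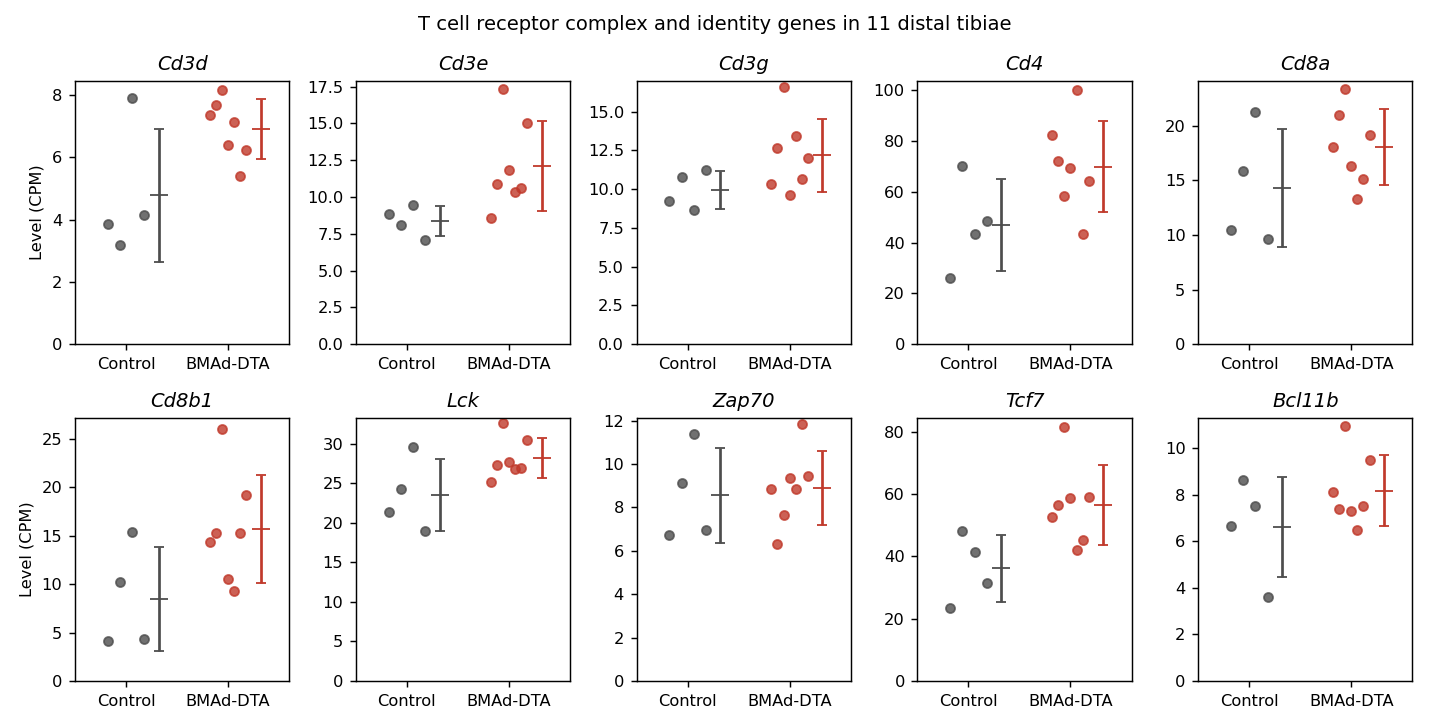
Level of each of the 10 genes in CPM (y axis, from 0, its own scale per gene) in the 4 Control and 7 BMAd-DTA libraries. Points are mice, and the bar beside them is the mean with 1 SD; the groups overlap in all 10 panels, least in Cd3e, where 6 of 7 BMAd-DTA mice lie above the Control range.

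Among the CD3 genes, Cd3e encodes the epsilon chain, which pairs with both other chains and is needed for the complex to reach the surface. Cd3e was at 8.82, 8.13, 9.45 and 7.05 CPM in Control replicates 1 to 4 and at 8.54, 10.9, 17.4, 11.8, 10.3, 10.6 and 15.0 CPM in BMAd-DTA replicates 1 to 7. The 4 Control values lay close together, and 6 of 7 BMAd-DTA values were above all of them. The group means were 8.36 ± 1.03 CPM (SD, n = 4) and 12.1 ± 3.05 CPM (SD, n = 7), a difference of 0.53 on the log2 scale (standard error, SE, 0.18 and edgeR adjusted p = 0.161).

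Cd3d encodes the delta chain. It was at 3.86, 3.18, 7.92 and 4.15 CPM in Control and at 7.36, 7.68, 8.17, 6.39, 7.12, 5.40 and 6.23 CPM in BMAd-DTA. Control replicate 3, the library with most muscle, stood among the highest BMAd-DTA values, and the other 3 Control libraries were below every BMAd-DTA library. On the log2 scale the difference was 0.53 (SE 0.22, edgeR adjusted p = 0.254), and without Control replicate 3 it was 0.89 (edgeR adjusted p = 0.0390). It was 0.44, 0.38 and 0.47 without Control replicates 1, 2 and 4 in turn (edgeR adjusted p = 0.561, 0.494 and 0.392). With a skeletal muscle score as a covariate it was 0.52 (edgeR adjusted p = 0.365). Without the library with most muscle in each group it was 0.94 (edgeR adjusted p = 0.0588).

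Cd3g, for the gamma chain, was at 9.20, 10.8, 8.63 and 11.2 CPM in Control and at 10.3, 12.7, 16.6, 9.62, 13.4, 10.6 and 12.0 CPM in BMAd-DTA. Of the 7 BMAd-DTA libraries 4 were above all controls, and the remaining 3 lay inside the Control range. On the log2 scale the difference was 0.29 (SE 0.15, edgeR adjusted p = 0.351).

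The co-receptors bind the MHC molecule beside the receptor, CD4 to class II and CD8 to class I. Cd4 (chromosome 6, 124864692 to 124888221, minus strand) was at 26.0, 70.02, 43.2 and 48.4 CPM in Control and at 82.4, 72.0, 58.2, 69.3, 99.9, 43.3 and 64.3 CPM in BMAd-DTA. Both groups were wide, and 3 BMAd-DTA mice exceeded all controls. On the log2 scale the difference was 0.58 (SE 0.24, edgeR adjusted p = 0.259), with 0.38 without Control replicate 1 and 0.83 without Control replicate 2.

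Cd8a and Cd8b1 encode the alpha and beta chains, which are joined on conventional cytotoxic T cells, and they lie 35932 bases apart on the plus strand of chromosome 6 (71373427 to 71379173 for Cd8a and 71322788 to 71337494 for Cd8b1). Cd8a was at 10.5, 15.8, 21.3 and 9.59 CPM in Control and at 18.03, 21.0, 23.4, 16.3, 13.3, 15.1 and 19.2 CPM in BMAd-DTA (log2 fold change 0.34, SE 0.21, edgeR adjusted p = 0.461). Cd8b1 was at 4.13, 10.2, 15.4 and 4.30 CPM in Control and at 14.3, 15.2, 26.0, 10.5, 9.30, 15.3 and 19.2 CPM in BMAd-DTA (log2 fold change 0.89, SE 0.37, edgeR adjusted p = 0.245). Control replicates 1 and 4 were the 2 lowest libraries for both chains, while Control replicate 3 was exceeded by 1 library for Cd8a and by 2 for Cd8b1. The Cd8a value was 0.60 without Control replicate 3, 0.21 without Control replicate 1 and 0.19 without Control replicate 4, and the Cd8b1 value was 1.35 without Control replicate 3. Cd8b1 had the largest fold change of the 10 genes and the widest variation between mice.

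Lck (chromosome 4, 129548344 to 129573641, minus strand) was at 21.3, 24.3, 29.6 and 19.0 CPM in Control and at 25.2, 27.3, 32.6, 27.7, 26.8, 26.9 and 30.5 CPM in BMAd-DTA. It varied least between mice, 2 BMAd-DTA libraries were above all controls, and every BMAd-DTA library was above 3 of the 4 controls. On the log2 scale the difference was 0.26 (SE 0.11, edgeR adjusted p = 0.277), with 0.39 without Control replicate 3 and 0.17 without Control replicate 4.

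Zap70 (chromosome 1, 36761798 to 36782818, plus strand) was at 6.72, 9.13, 11.4 and 6.95 CPM in Control and at 8.84, 6.30, 7.66, 9.34, 8.84, 11.9 and 9.43 CPM in BMAd-DTA, with 1 BMAd-DTA library above and 1 below all controls. On the log2 scale the difference was 0.058 (SE 0.18, edgeR adjusted p = 0.914), the smallest of the 10, and its sign turned when Control replicate 1, Control replicate 4 or BMAd-DTA replicate 6 was left out (-0.041, -0.030 and -0.024).

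Tcf7 encodes TCF1, a factor of naive and memory T cells that also acts early in the thymus. Tcf7 (chromosome 11, 52252371 to 52283014, minus strand) was at 23.6, 48.2, 41.5 and 31.5 CPM in Control and at 52.6, 56.5, 81.7, 58.9, 42.2, 45.2 and 59.1 CPM in BMAd-DTA. Of the 7 BMAd-DTA libraries 5 were above all controls, and replicates 5 and 6 lay inside the Control range. The means were 36.2 ± 10.9 CPM (SD, n = 4) and 56.6 ± 12.9 CPM (SD, n = 7), a difference of 0.65 on the log2 scale (SE 0.20, edgeR adjusted p = 0.133), the smallest adjusted p of the 10. Its lowest library, Control replicate 1, was also lowest in summed osteoblast and osteocyte genes (2931 CPM). Its highest, BMAd-DTA replicate 3, was also highest there (36208 CPM). The order of the other libraries differed, and a relation between Tcf7 and bone cell content was not tested.

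Bcl11b, whose loss lets T cells take on NK-like features, lies on chromosome 12 (107910403 to 108003602, minus strand). It was at 6.67, 8.66, 7.50 and 3.63 CPM in Control and at 8.13, 7.39, 10.95, 7.32, 6.49, 7.51 and 9.48 CPM in BMAd-DTA. Control replicate 4 was the lowest library, 2 BMAd-DTA libraries were above all controls, and the log2 difference was 0.31 (SE 0.21, edgeR adjusted p = 0.508). It was 0.10 without Control replicate 4 and 0.47 without Control replicate 2. The annotated spans of Cd3e, Lck and Tcf7 in GENCODE M21 overlap another gene on the same strand (Gm48720, Mir8119 and Gm26551). Read pairs that fall on exons of both genes would be counted for neither. Whether exons overlap in the annotation behind the counts was not examined.

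Levels of different genes were set side by side as CPM per kilobase of merged exons. Merged exons span all annotated transcripts of a gene, which can be longer than the transcripts present. The order below therefore depends on that length and is not a measured order of transcript abundance. In Control the order was Tcf7 (13.8 ± 4.13, SD, n = 4), Cd4 (11.6 ± 4.50), Lck (8.04 ± 1.56), Cd8b1 (5.73 ± 3.62), Cd8a (3.93 ± 1.49), Cd3g (3.04 ± 0.38), Zap70 (2.86 ± 0.73), Cd3d (2.63 ± 1.18), Cd3e (2.05 ± 0.25) and Bcl11b (0.816 ± 0.265) CPM per kilobase. In this order only the step from Cd3e to Bcl11b exceeded the sum of both SDs. In BMAd-DTA the order ran from Tcf7 (21.6 ± 4.90, SD, n = 7), Cd4 (17.3 ± 4.46), Cd8b1 (10.6 ± 3.78), Lck (9.62 ± 0.86) and Cd8a (4.96 ± 0.96) to Cd3d (3.81 ± 0.52), Cd3g (3.72 ± 0.72), Zap70 (2.97 ± 0.57), Cd3e (2.96 ± 0.75) and Bcl11b (1.01 ± 0.19) CPM per kilobase, and the steps from Lck to Cd8a and from Cd3e to Bcl11b exceeded both SDs together. Trac, the constant segment of the receptor alpha chain, was higher than any member in both groups, at 22.8 ± 4.55 and 28.4 ± 3.73 CPM per kilobase.

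Within-library ratios of counts, which do not depend on how libraries are scaled, showed how the members moved against each other. For 9 ratios the groups were set against all 330 ways of dividing the mice into 4 and 7 (exact permutation, two-sided). The count ratio of Cd8b1 to Cd8a was 0.395, 0.643, 0.722 and 0.449 in Control and 0.794, 0.727, 1.11, 0.645, 0.701, 1.01 and 1 in BMAd-DTA. In BMAd-DTA 5 of 7 libraries were above all controls, with a difference in mean log2 ratio of 0.65 (exact permutation p = 0.0212, adjusted p = 0.0955 over 9 ratios), which did not pass 0.05 after adjustment. The ratio of Cd3e to Ptprc, which encodes the pan-leukocyte protein CD45, was 0.0175 ± 0.0028 in Control (SD, n = 4) and 0.0266 ± 0.0070 in BMAd-DTA (SD, n = 7). In 6 of 7 BMAd-DTA libraries it was above all controls (log2 difference 0.58, exact permutation p = 0.0212, adjusted p = 0.0955), which again did not pass. Ptprc itself had a log2 fold change of -0.072 (SE 0.10, edgeR adjusted p = 0.777).

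The ratio of Cd4 to Cd8a overlapped widely, from 2.03 to 5.05 in Control and from 2.49 to 7.53 in BMAd-DTA (log2 difference 0.23, exact permutation p = 0.536, adjusted p = 0.603). Single mice moved this difference, to 0.10, 0.38, 0.0059 and 0.44 without Control replicates 1 to 4 in turn and to 0.070 without BMAd-DTA replicate 5. Relative to Cd3e, Zap70 had a mean count ratio of 1.02 ± 0.19 in Control (SD, n = 4) and 0.778 ± 0.246 in BMAd-DTA (SD, n = 7), with 3 of 7 BMAd-DTA libraries below all controls (log2 difference -0.43, exact permutation p = 0.145, adjusted p = 0.327). Lck to Cd3e was 2.81 ± 0.32 and 2.41 ± 0.36 (log2 difference -0.23, exact permutation p = 0.106, adjusted p = 0.318). For the other 4 ratios to Cd3e (Cd3d, Cd3g, Tcf7 and Bcl11b) the log2 differences lay between -0.23 and 0.17, with adjusted p values from 0.469 to 0.682 in the exact permutation test. The Cd3g to Cd3e difference was -0.35 without Control replicate 3 and -0.087 without Control replicate 4.

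**Figure D2:**
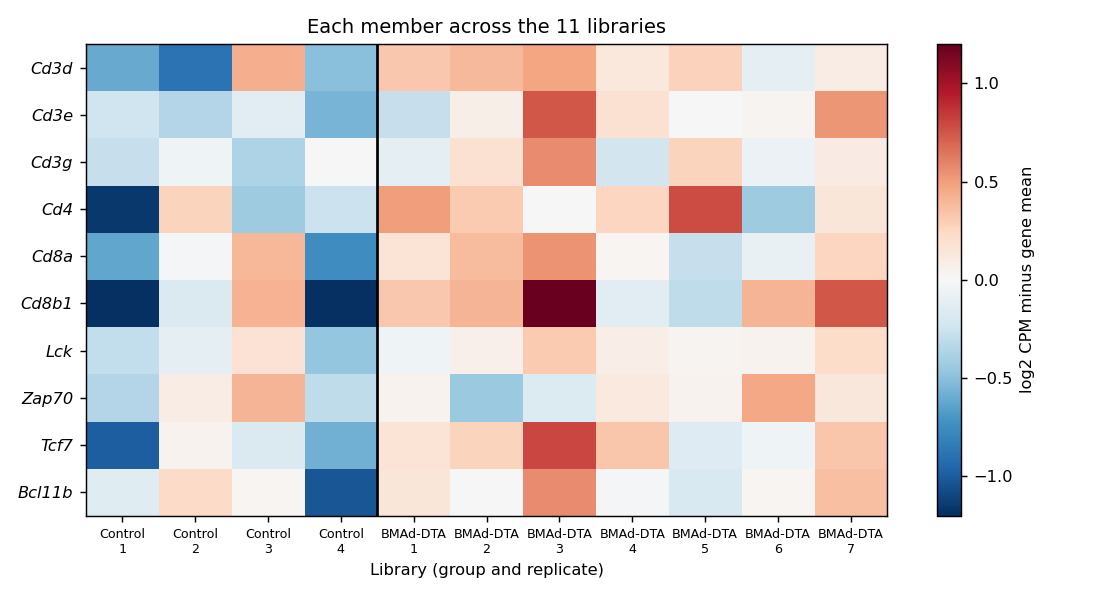
Log2 CPM of each member (rows) minus its mean over the 11 libraries (columns, by group and replicate; colour scale in log2 units). Control replicates 1 and 4 are low in Cd8a, Cd8b1, Lck and Tcf7, BMAd-DTA replicate 3 is high in 8 of the 10 genes, and the Zap70 and Cd4 rows run differently from the others.

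Between mice, the members followed one another to different degrees. Over the 45 pairs, Pearson's r of log2 CPM across the 11 libraries had a median of 0.57 and was above 0.5 in 23 pairs. The 2 CD8 chains ran closest (r = 0.94). Lck had r = 0.92 with Cd8b1, 0.89 with Cd8a and 0.38 with Cd3g. Cd3d and Cd3g, the neighbours with opposed starts shown above, had r = 0.33, and Cd3g and Zap70 had the only negative value (r = -0.35). These values are descriptions over 11 libraries that share depth, genotype and bone composition.

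Set against Cd3e, the correlation was tested for each of the other 9 members (permutation tests with 100000 resamples, Benjamini-Hochberg adjusted over 9). Lck gave r = 0.85 (permutation p = 0.00152, adjusted p = 0.0137) and rho = 0.88 (permutation p = 0.0006, adjusted p = 0.0054), and r was 0.71 without the 2 libraries farthest from the median of Cd3e, BMAd-DTA replicate 3 and Control replicate 4. Within the 7 BMAd-DTA libraries, as a description, r with Cd3e was 0.996 for Lck, 0.77 for Tcf7, 0.77 for Bcl11b, 0.70 for Cd8b1, 0.62 for Cd3g, 0.58 for Cd8a, 0.16 for Cd3d, -0.15 for Zap70 and -0.38 for Cd4, while 4 Control libraries are too few for a value of their own. Tcf7 gave r = 0.74 (permutation p = 0.00978, adjusted p = 0.0319) and rho = 0.75 (permutation p = 0.00982, adjusted p = 0.0442), Cd8b1 gave r = 0.74 (permutation p = 0.0109, adjusted p = 0.0319) and rho = 0.70 (permutation p = 0.0201, adjusted p = 0.0602), and Bcl11b gave r = 0.71 (permutation p = 0.0142, adjusted p = 0.0319) and rho = 0.43 (permutation p = 0.193, adjusted p = 0.289). Without those 2 libraries r fell to 0.50 for Tcf7, 0.47 for Cd8b1 and 0.30 for Bcl11b, so the size of these 3 values depended on them in part. Leaving out the extremes of Cd3e also narrows its range, and no test was run on the remaining libraries. Cd8a gave r = 0.65 (permutation p = 0.0295, adjusted p = 0.0531) and rho = 0.61 (permutation p = 0.0526, adjusted p = 0.118), Cd3g gave r = 0.59 (permutation p = 0.0539, adjusted p = 0.0808) and rho = 0.39 (permutation p = 0.236, adjusted p = 0.303), and Cd3d gave r = 0.57 (permutation p = 0.0638, adjusted p = 0.0820) and rho = 0.53 (permutation p = 0.0998, adjusted p = 0.180). Cd4 (r = 0.18, permutation p = 0.600, adjusted p = 0.675, and rho = 0.045, permutation p = 0.903) and Zap70 (r = 0.0996, permutation p = 0.771, and rho = 0.19, permutation p = 0.578, adjusted p = 0.650) showed no relation with Cd3e that this test could detect.

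**Figure D3:**
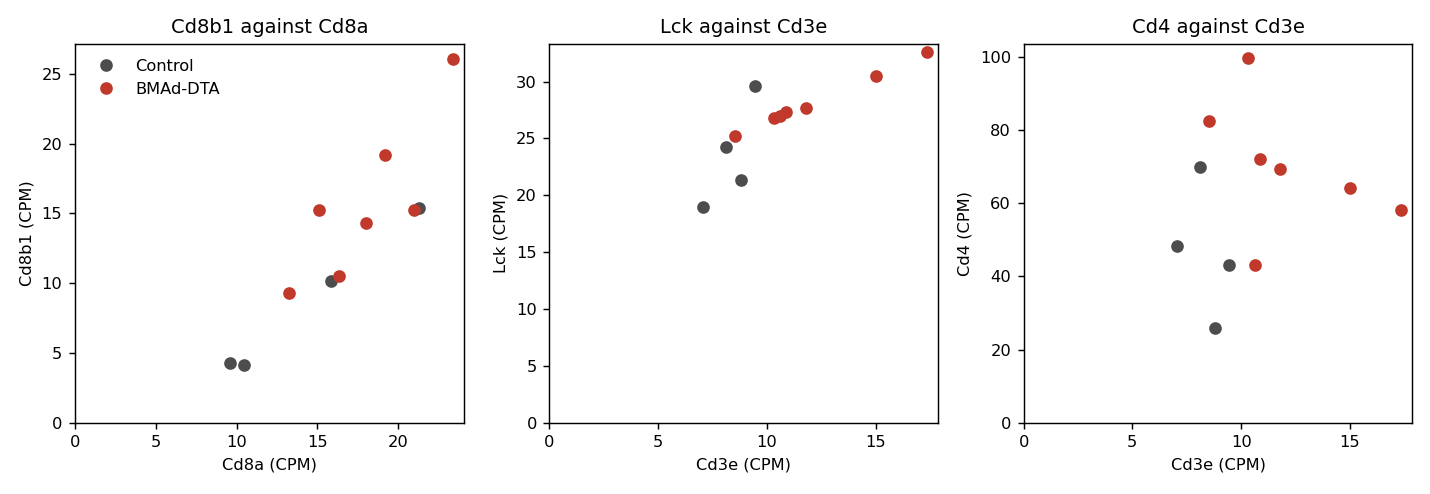
Levels in CPM of Cd8b1 against Cd8a, Lck against Cd3e and Cd4 against Cd3e in each of the 11 libraries (axes from 0). Libraries high in Cd8a are high in Cd8b1, and those high in Cd3e are high in Lck, while Cd4 spreads from 26.0 to 99.9 CPM without following Cd3e.

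The wider pathway was read from 73 further genes of T cell receptor signalling and T cell identity, of which 68 were tested. None of the 68 had an edgeR adjusted p under 0.05, 16 had an unadjusted p under 0.05, all in the higher direction, 49 had a higher and 19 a lower fitted level, and the median log2 fold change was 0.15. Over all tested genes 7.89% had such a p in the higher direction and 50.4% a higher fitted level. DESeq2 called 5 of the 68 higher and none lower, namely Trbc2, Cd6, Thy1, S1pr1 and Ccr7, beside 2.78% of all genes with an adjusted p in DESeq2.
All 5 tested receptor chain genes had a higher fitted level (median log2 fold change 0.31). They ran from Trbc1, a constant segment of the beta chain (0.28, SE 0.17, edgeR adjusted p = 0.445), to Trbc2, the other beta constant segment (0.60, SE 0.19, edgeR adjusted p = 0.136). Trbc2 went from 9.74 to 14.8 CPM without overlap of the groups, a separation in this direction that 1.78% of all tested genes showed. Trbc1 and Trbc2 are nearly identical in their coding sequence, so reads that fit both are left out of either count. Cd247, for the zeta chain, had a log2 fold change of 0.30 (SE 0.19, edgeR adjusted p = 0.461), and Trac 0.31 (SE 0.13, adjusted p = 0.238).

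Of 16 tested genes of proximal signalling, 11 had a higher and 5 a lower fitted level (median log2 fold change 0.074), from Lcp2, the SLP-76 adaptor shared with myeloid cells and platelets (-0.18, edgeR adjusted p = 0.353), to Themis, a regulator of thymocyte selection (0.47, adjusted p = 0.472). Of 11 tested phosphatase and inhibitor genes, 5 were fitted higher and 6 lower (median -0.027), from Ubash3b (-0.15, edgeR adjusted p = 0.667) to Dgka, which removes diacylglycerol (0.35, adjusted p = 0.225). Many genes of both lists are also used by other leukocytes.
Among 15 co-stimulatory and adhesion receptors, 11 were fitted higher and 4 lower (median log2 fold change 0.37). The extremes were Pdcd1, for the inhibitory receptor PD-1 (-0.25, edgeR adjusted p = 0.834), and Cd40lg, the helper T cell ligand of CD40 (0.74, adjusted p = 0.412), both near 1 CPM. Cd6 went from 8.09 to 11.4 CPM (0.49, SE 0.15, edgeR adjusted p = 0.129, DESeq2 adjusted p = 0.0388). Thy1, which is also made by stromal cells, went from 49.97 to 64.2 CPM (0.36, SE 0.10, edgeR adjusted p = 0.113, DESeq2 adjusted p = 0.0313). Every BMAd-DTA library was above every Control library for Thy1, as for 1.78% of all tested genes.

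Of 12 transcription factors besides the members, 10 were fitted higher (median log2 fold change 0.18), the highest being Lef1, the partner of Tcf7 in the same family (0.41, edgeR adjusted p = 0.290). Of 9 survival and homing genes 7 were fitted higher (median 0.15), and the lowest was Il2rb (-0.094, edgeR adjusted p = 0.794). Ccr7, the receptor that draws naive and central memory T cells and mature dendritic cells to lymph nodes, had the largest fold change of all 68 genes, from 9.12 to 15.7 CPM (0.78, SE 0.25, edgeR adjusted p = 0.148, DESeq2 adjusted p = 0.0323). S1pr1, through which lymphocytes leave tissues and which endothelium makes in large amounts, went from 62.2 to 93.6 CPM (0.59, SE 0.14, edgeR adjusted p = 0.0799, DESeq2 adjusted p = 0.0042).

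**Figure D4:**
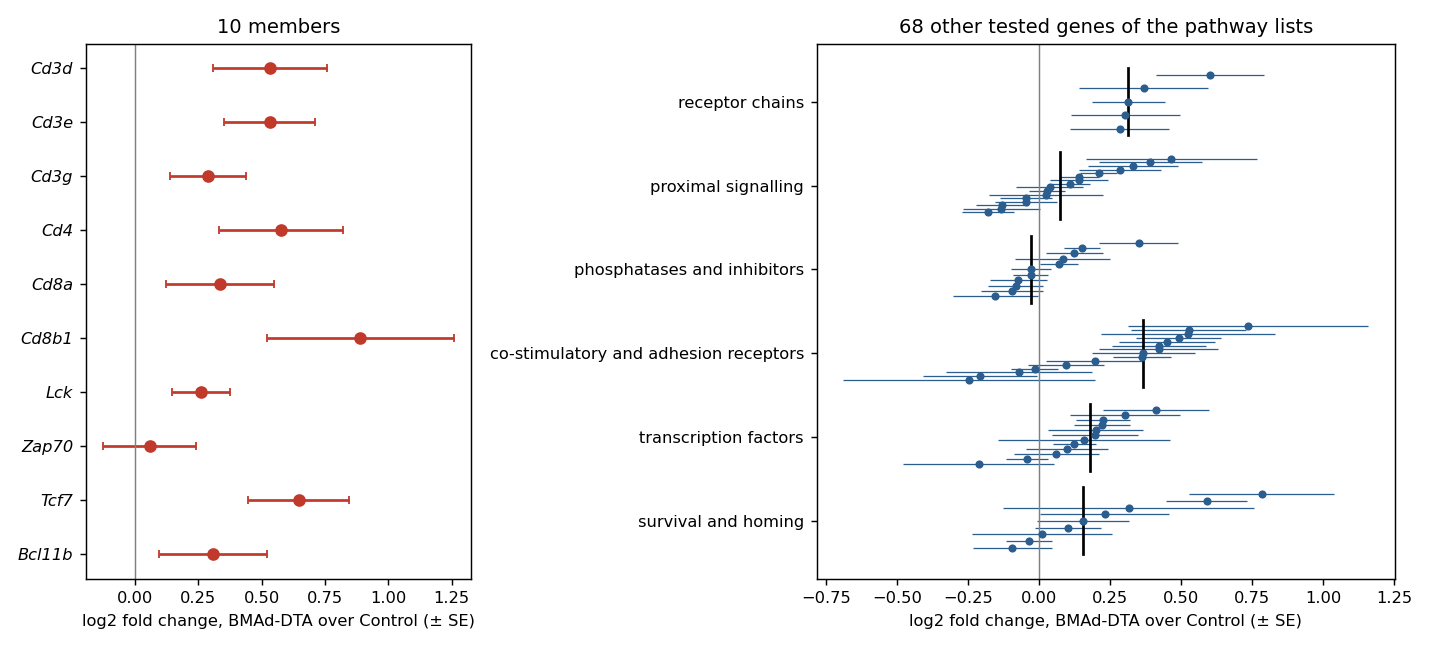
Log2 fold change of BMAd-DTA over Control (x axis, bars of 1 standard error) for the 10 members and for 68 other tested genes grouped by role, with black lines at group medians. All 10 members lie right of 0, with Zap70 within its error of it, and the group medians run from -0.027 for phosphatases and inhibitors to 0.37 for co-stimulatory and adhesion receptors.

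Markers of other cells were read beside these results over whole lists. The 11 NK cell genes, which share Lck and Zap70 with T cells, summed to 162 to 211 CPM in Control and 152 to 225 CPM in BMAd-DTA, with 5 fitted higher and 6 lower, and Ncr1, the defining NK receptor gene, was at 9.81 ± 1.597 and 7.52 ± 2.75 CPM (SD, n = 4 and 7, log2 fold change -0.38, edgeR adjusted p = 0.519). The 7 tested of 8 dendritic cell genes summed to 98.2 to 133 CPM in Control and 102 to 144 CPM in BMAd-DTA. All 8 B cell genes were fitted higher (458 to 1045 CPM summed in Control, 800 to 1855 CPM in BMAd-DTA), with a median log2 fold change of 0.54. Of the genes for T and B precursors, Rag1, Rag2 and Dntt summed to 35.9 to 111 CPM in Control and 19.8 to 112 CPM in BMAd-DTA. Ptcra, which marks thymocytes, had no row under that symbol in the merged count table, so it was not part of the test on that table. The 9 macrophage and monocyte genes summed to 1783 to 2127 CPM in Control and 1806 to 1992 CPM in BMAd-DTA.
The 11 osteoblast and osteocyte genes summed to 2931 to 13055 CPM in Control and 15422 to 36208 CPM in BMAd-DTA, without overlap, and the 6 tested erythroid genes to 3480 to 7008 CPM and 3622 to 5610 CPM, all 6 fitted lower. The 10 adipocyte genes summed to 767 to 1570 CPM in Control and 301 to 974 CPM in BMAd-DTA, and the 10 neutrophil genes to 22872 to 26190 CPM and 18598 to 27318 CPM. Of 6 keratinocyte genes, a source of Bcl11b in skin, the 3 tested summed to 2.90 to 15.4 CPM and 3.79 to 15.0 CPM. The part of these lists in the T cell gene values was not tested. With a skeletal muscle score as a covariate the median log2 fold change of the members was 0.47, and without both libraries with most muscle it was 0.63.

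The genes whose pattern over the 11 libraries was most like that of the CD3 genes included no listed T cell gene. Among 12957 genes ranked (mean of at least 50 counts, with the 3 CD3 genes set aside), the 8 non-member genes with the highest Pearson's r to the mean centred log2 CPM of Cd3d, Cd3e and Cd3g were Larp6 (0.97), Dkk1 (0.96), P4ha1 (0.95), Frmd6 (0.94), Prr15 (0.94), Pdgfra (0.93), Tspan11 (0.92) and Colec12 (0.92). Larp6 encodes a protein that binds collagen mRNAs, P4ha1 a collagen prolyl hydroxylase, Dkk1 a secreted Wnt antagonist and Pdgfra a receptor of mesenchymal cells. Around the 2 group means, r of these 8 lay between 0.82 for Colec12 and 0.94 for Larp6. Of the other members Lck ranked 123rd (r = 0.83), Cd8b1 249th (0.78), Tcf7 259th (0.78), Cd8a 512th (0.71), Bcl11b 1228th (0.57), Cd4 2375th (0.41) and Zap70 6078th (0.018). The 8 were picked as the highest of 12957 values from 11 libraries, so the size of their r carries no test.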

How the data were processed

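Strand-specific mRNA of whole distal tibiae from 4 Control and 7 BMAd-DTA mice was measured. The authors checked reads with FastQC 0.11.9, aligned pairs to mm10 with STAR at default parameters and deposited raw gene counts, both for each library and merged. The merged counts match those of the per-library column for the strand of the read. The annotation release is not given in the sources used here. Places and exon lengths are from GENCODE M21 (GRCm38), promoters from RefSeq. Summary lines that name no gene held 26.3% to 32.3% of pairs per library and did not enter library sizes.

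The test was run with edgeR 4.0.16 under R 4.3.3 (low counts removed by filterByExpr, TMM, quasi-likelihood F test, genotype only, two-sided, Benjamini-Hochberg over 16496 genes, threshold 0.05). The standard error is the log2 fold change over the square root of F. CPM are TMM-scaled. Ratios used raw counts, and the smallest p that 330 splits allow is 0.00303. Alternatives were DESeq2 1.42.0, limma-voom 3.58.1 with and without quality weights, 3 scalings, 2 filters, both kinds of per-library counts, a muscle covariate and each mouse left out. The fits were tested on simulated data, where edgeR narrowly missed the first criterion set for the share of changed genes recovered. The criterion was then limited to genes averaging 50 counts or more, where edgeR met it.

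The members and gene lists were chosen with earlier results of these data known. All 10 members are named, with the tested extremes of each pathway list, Ptprc, defining markers and the 8 genes most like the CD3 genes. Trac, Cd247 and the genes that DESeq2 called were named after their values were seen. Of the genes this rule names, 2 are not reported here. Nothing in the labels ties libraries to batches, so no batch could be modelled. The p-values for genotype set its difference against the spread between these mice, and an unlabelled batch could enter either.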

Additional observations from a re-analysis of the deposited data

Results flagged for a closer look

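Of 38 groups of values tested (10 levels and 9 ratios in each genotype), 3 held a library far from the rest by Dixon's gap criterion, where chance flags about 1 in 20. Tcf7 was at 81.7 CPM in BMAd-DTA replicate 3, and the next highest BMAd-DTA library was at 59.1 CPM. The Bcl11b to Cd3e count ratio was 0.952 in BMAd-DTA replicate 1, with the next at 0.707. The Cd4 to Cd8a count ratio was 7.53 in BMAd-DTA replicate 5, with the next at 4.57.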

How the results depend on the processing

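All 10 members kept a positive log2 fold change under each of the 12 alternatives that left out no single mouse, including the one without the library with most muscle in each group (added after seeing the data), and 9 of 10 did so with any 1 mouse left out, the exception being Zap70 (-0.041 without Control replicate 1 to 0.23). The count of genes called over the whole table depended most on the tool. It was 13 in the edgeR fit, 845 with DESeq2, 20 with limma-voom, 238 with quality weights, 20 with RLE scaling, 3 with the muscle covariate, 1 without both libraries with most muscle, and from 0 to 292 with 1 mouse left out. Members called were 0 in edgeR (6 at an unadjusted p under 0.05), 1 with DESeq2 (Tcf7, log2 fold change 0.64) and from 0 to 1 with 1 mouse left out, the 1 being Cd3d without Control replicate 3 (range of its log2 fold change 0.38 to 0.89). Pathway genes called were 0 in edgeR, 5 with DESeq2, 1 with quality weights (S1pr1) and from 0 to 1 with 1 mouse left out (S1pr1 without Control replicate 3). Among ratios to Cd3e the sign of the log2 difference turned for Cd3d (-0.044 to 0.32) and Bcl11b (-0.33 to 0.019) without Control replicate 2 and for Tcf7 (-0.052 to 0.33) without Control replicate 1, and the other 6 kept theirs under every alternative run. With total count scaling 4 correlations with Cd3e again had an adjusted permutation p under 0.05. The causes were not tested. Counting error was largest for Cd3d, Bcl11b and Zap70, at 9.61%, 8.63% and 8.04% of the level. The fitted variation between mice was larger for each of them, at 24.9%, 24.1% and 21.1%. No paired analysis was possible because the labels give no replicate numbers shared by the groups.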

Other observations

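The variable segments of the T cell receptor, taken by symbol, held few counts. The 17 rows of beta chain variable segments summed to 98 to 152 counts in Control and 106 to 182 counts in BMAd-DTA libraries, and the 25 rows of alpha chain variable segments to 24 to 57 and 36 to 87 counts. The 1 row of gamma chain variable segments had 6 to 22 and 4 to 26 counts, and the 3 rows of delta chain variable segments 5 to 15 and 0 to 26 counts. These are sums of raw counts without scaling, the ranges overlapped for each chain, and no test was run on them.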
